A study of Mus musculus with 20 samples.

Results

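The comparison described here set 5 libraries of mouse cerebellar granule neurons that received an shRNA against Kdm6b together with an active human KDM6B enzymatic domain against 5 libraries that received the shRNA alone. These are 10 of the 20 RNA sequencing libraries of the study. They were chosen by their labels and paired by the library number, 1 to 5, that each carries, and all expressed genes were compared. The other 10 libraries, 5 controls and 5 with the shRNA and an enzymatically dead form of the domain, entered the same fit and are given beside the results. In all 4 groups infection took place on day 1 of culture, AraC, which kills dividing cells, was added on day 2, and RNA was taken on day 7. The shRNA targets the mouse gene and the re-expressed protein is the enzymatic domain of the human enzyme rather than its full length. The labels name no virus for the control group. Nor do they tie libraries to separate cultures or animals, so a p-value here covers only the spread between these libraries, which may be technical. The question set by the design was whether the enzymatic activity is enough to restore synaptic gene expression after knockdown.

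KDM6B is a JmjC-family demethylase that removes methyl groups from lysine 27 of histone H3, a mark laid down by the Polycomb repressive complex that contains EZH1 or EZH2. Loss of that mark accompanies the activation of silenced genes, and KDM6B also has functions that do not need its catalytic site. Granule neurons are the small glutamatergic neurons of the cerebellum, and in culture they pass from migrating, recently postmitotic cells to neurons that express mature synaptic and ion channel genes.

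Total estimated counts ran from 17739054 to 20870586 in the active-domain libraries and from 16694493 to 20673156 in the shKdm6b libraries. Libraries numbered 1 to 3 differed from those numbered 4 and 5 in both groups: the ribosomal RNA precursor Rn45s took 2.43 to 7.24% of counts in the former and 0.279 to 0.611% in the latter, and the nuclear noncoding RNA Malat1 stood at 4650 to 6570 against 217 to 885 CPM (counts scaled to a common library size). Libraries numbered 4 carried the most Apoe, an astrocyte and microglia gene, at 3200 to 6980 CPM against 1020 to 2380 CPM in the others. No label explains the numbers. Gabra6, a receptor subunit that marks granule neurons, was present in every library, at 34.7 to 244 CPM in shKdm6b and 56.2 to 275 CPM in active-domain libraries, with the lowest value of each group in number 4. In bulk RNA, fewer cells of a type and less RNA per cell cannot be told apart.

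Of 15284 genes tested, 1 rose and 0 fell with the active domain (edgeR's quasi-likelihood test with the library number as a block, Benjamini-Hochberg adjusted p below 0.05). The share of all genes called higher was therefore 0.00654%, and the share called lower was 0%. At an unadjusted p below 0.05, 364 genes were higher (2.38%) and 213 lower (1.39%), 577 in all or 3.78%, fewer than the 764 that a test with no differences gives on average. In the 5 pairs, 406 genes were higher in every pair (2.66%) and 250 lower in every pair (1.64%). The median log2 fold change over all genes tested was 0.01. DESeq2 with the same block called 21 genes, 19 higher and 2 lower, and without the block edgeR called 0 genes.

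**Figure D1:**
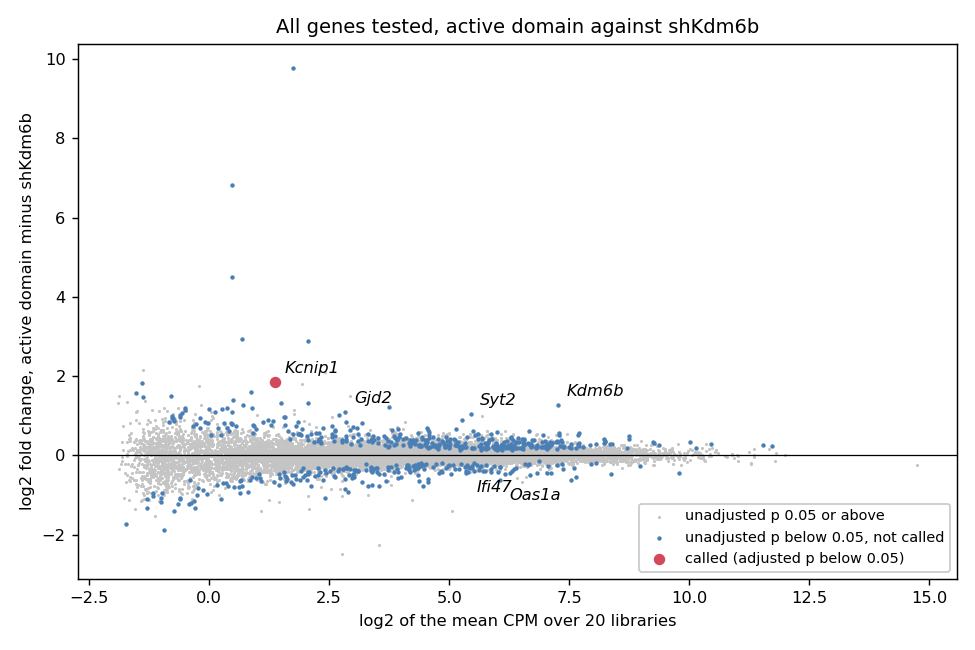
Each dot is 1 of 15284 genes: the horizontal axis is the log2 of its mean CPM over 20 libraries and the vertical axis its log2 fold change, active domain minus shKdm6b. Kcnip1 (red) is the single gene past the adjusted threshold; the blue dots, at an unadjusted p below 0.05, lie on both sides of 0, and the points above 4 belong to genes with counts of 0 in most or all shKdm6b libraries.

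Reads assigned to Kdm6b, the target of the shRNA, were more frequent with the active domain. Kdm6b stood at 99.4, 112, 89.3, 37.9 and 76.4 CPM in shKdm6b libraries 1 to 5 and at 290, 312, 266, 73.2 and 119 CPM in active-domain libraries 1 to 5. The active-domain value was above its shKdm6b pair in 5 of 5 pairs, but the groups overlapped because active-domain library 4, at 73.2 CPM, lay below 4 of the shKdm6b libraries. The paired edgeR fit gave a log2 fold change of 1.26 ± 0.21 (SE; adjusted p = 0.0865), which missed the threshold. The mean pair difference in log2 CPM was 1.24 ± 0.42 (SD, n = 5). Flipping the signs of the pair differences exactly gave p = 0.0625, the smallest value that 5 pairs can give. An exact two-sided permutation test that ignores the pairing gave p = 0.0635. DESeq2 with the block called the gene (adjusted p = 2.93e-05). Active-domain library 4 alone made the groups overlap. Without it the permutation test gave p = 0.00794, the smallest value it can give, because removing that library leaves no overlap. Leaving out any other of the 10 libraries gave 0.0635 to 0.111 in the same test. The paired edgeR fit gave 1.52 in numbers 1 to 3 alone (adjusted p = 1.07e-05) and 0.78 in numbers 4 and 5 alone (adjusted p = 0.533). It called the gene without active-domain library 5 (1.41, adjusted p = 0.0411) and in all numbers but 5 (1.41, adjusted p = 0.0367). Without any other of the 10 libraries it did not (1.17 to 1.33, adjusted p from 0.0801 to 0.639). Nor did edgeR call the gene in all numbers but 4 (1.35, adjusted p = 0.126), in the 10 compared libraries alone (1.24) or without the block (1.35).

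Kdm6b was at 141, 171, 139, 81.2 and 187 CPM in control libraries 1 to 5 and at 272, 250, 192, 54.9 and 109 CPM in dead-domain libraries 1 to 5. The active-domain level was above the dead-domain level in 5 of 5 pairs, by 0.29 on the log2 scale (exact permutation p = 0.611; sign-flip p = 0.0625). Reads of the human domain may be counted as mouse Kdm6b where the sequences match, so these values do not separate the transgene from the endogenous transcript. The gene spans chr11:69398508-69413675 on the minus strand (GRCm38, the mm10 assembly, GENCODE annotation). Its X-linked paralogue Kdm6a, which removes the same mark, stood at 44.4 ± 19.9 CPM (SD, n = 5) in shKdm6b and 46.3 ± 13.7 CPM (n = 5) in active-domain libraries, with a log2 fold change of 0.21 ± 0.23 (edgeR adjusted p = 1).

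The gene that rose was Kcnip1, which encodes KChIP1, a calcium-binding accessory subunit of A-type voltage-gated potassium channels. Kcnip1 was at 1.97, 2.07, 1.32, 1.79 and 0.242 CPM in shKdm6b libraries 1 to 5 and at 12.9, 8.42, 4.38, 4.10 and 0.576 CPM in active-domain libraries 1 to 5. Each active-domain library lay above its own pair, and in numbers 1 to 4 also above every shKdm6b library; number 5 was low in both groups, which made the groups overlap. The log2 fold change was 1.86 ± 0.24 (SE; edgeR adjusted p = 0.0115), and pair differences ran from 1.09 in pair 5 to 2.68 in pair 1.

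Kcnip1 was lower in the other groups. Control libraries 1 to 5 held 1.73, 1.55, 1.48, 0.827 and 0.234 CPM, and dead-domain libraries 1 to 5 held 2.52, 2.77, 1.41, 1.46 and 0.398 CPM. The active-domain libraries exceeded their dead-domain pairs in 5 of 5 cases, by 1.67 on the log2 scale (edgeR adjusted p = 0.0411), and the control level by 2.22 (adjusted p = 0.000281), whereas shKdm6b differed from control by 0.37 (adjusted p = 0.594). These comparisons share the active-domain or the shKdm6b libraries. Its mean level with the active domain, 6.07 ± 4.71 CPM (SD, n = 5), lay above the control level of 1.16 ± 0.621 CPM (n = 5).

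Kcnip1 is a low-abundance transcript, with a mean of 2.61 CPM over 20 libraries. It spans chr11:33629339-33993152 on the minus strand and overlaps Kcnmb1 on the opposite strand; strand use in counting is not given in the sources used here, and Kcnmb1 itself differed by 0.30 ± 0.45 (adjusted p = 1). The call was lost in the 10 compared libraries alone (adjusted p = 1), without the block (adjusted p = 1), in numbers 4 and 5 alone (log2 fold change 1.14, adjusted p = 0.533), and when active-domain 1 or 2 or shKdm6b 1, 2 or 3 was left out (log2 fold change 1.61 to 1.83, adjusted p from 0.0574 to 0.149, edgeR). The call against the dead domain was lost, with 0 genes called, when active-domain 1, 2 or 3 or any of the 5 dead-domain libraries was left out.

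**Figure D2:**
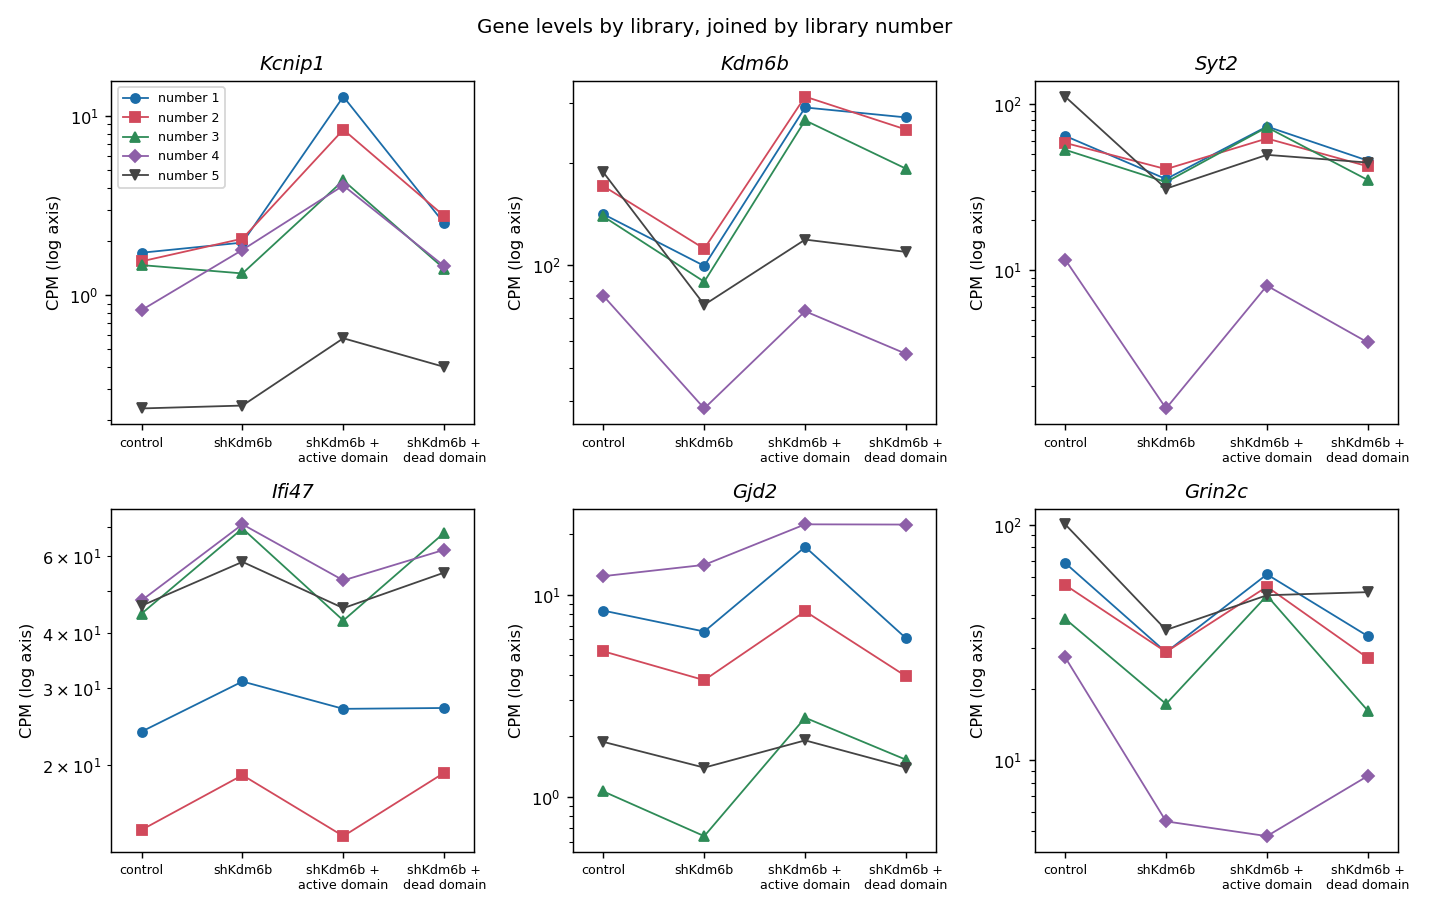
CPM (log axis) of 6 genes in the 4 groups, with 1 line per library number. Kcnip1 peaks in the active-domain group for each number, from 12.9 CPM in number 1 to 0.576 CPM in number 5; Kdm6b and Syt2 are higher and Ifi47 is lower with the active domain than with shKdm6b alone for all 5 numbers, Gjd2 likewise is higher, and Grin2c is higher for all numbers but 4.

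Interferon-stimulated genes were lower with the active domain as a group, although none passed the adjusted threshold. All 60 members of the list were tested; 60 had a negative log2 fold change and 0 a positive one, 30 were lower at an unadjusted p below 0.05 where 1.39% of all genes were, and 13 were lower in 5 of 5 pairs against 1.64% of all genes. The median was -0.30 against 0.01 over all genes tested. Averaged over the 60 genes, the active-domain library lay below its shKdm6b pair in 5 of 5 pairs, with a mean difference of -0.354 ± 0.231 log2 CPM (SD) and the smallest gap in number 1 (5.738 against 5.777) and the next smallest in number 4 (6.628 against 6.806). These genes answer type I or type II interferon through STAT proteins and IRF factors and include antiviral effectors, guanylate-binding GTPases and feedback regulators. They respond as a block, so their number is not a number of independent observations.

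Promoter sequence is shown for 4 of the 13 genes that were lower in every pair, since they share the GAAANNGAAA core that IRF-type factors recognise. Each line is 30 bases of the promoter from RefSeq (GRCm38.p6), on the strand of the gene and 5′ to 3′, with the match in capitals. They lie at chr19:34583363-34583392 (Ifit3, plus strand), chr4:156200871-156200900 (Isg15, minus strand), chr5:120907526-120907555 (Oas1a, minus strand) and chr11:58199512-58199541 (Igtp, plus strand).
Ifit3: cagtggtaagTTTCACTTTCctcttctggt
Isg15: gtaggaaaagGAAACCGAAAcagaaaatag
Oas1a: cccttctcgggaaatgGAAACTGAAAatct
Igtp: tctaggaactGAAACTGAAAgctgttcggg
In Ifit3 the match reads on the opposite strand, and further matches overlap the one marked, 2 in Isg15 and 1 in Oas1a. Searched on both strands of the window from 250 bases before to 50 bases after the start, the core was present in 21 of 46 list members with a promoter in the table (45.7%), in 5 of the 8 that were lower in every pair (62.5%), in 431 of 11484 tested genes (3.75%) and in 1079 of all 27025 promoters (3.99%). A match is a description of the sequence and shows no binding.

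Among the single genes, Ifi47, a GTPase induced by interferon gamma, had the smallest p of those that were lower. Ifi47 was at 31.0, 19.0, 69.3, 70.8 and 58.1 CPM in shKdm6b libraries 1 to 5 and at 26.9, 13.8, 42.7, 52.8 and 45.6 CPM in active-domain libraries 1 to 5. Every pair went down while the groups overlapped widely, because the numbers differed more than the groups did. The log2 fold change was -0.43 ± 0.08 (edgeR adjusted p = 0.38), and DESeq2 with the block called the gene (adjusted p = 0.00473).

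Ifit3, an antiviral effector, also missed the threshold. It stood at 170, 92.2, 272, 206 and 101 CPM in shKdm6b libraries 1 to 5 and 139, 69.4, 189, 148 and 70.8 CPM in active-domain libraries 1 to 5. Its log2 fold change was -0.44 ± 0.12 (edgeR adjusted p = 0.629). Its near-identical copy Ifit3b gave -0.45 ± 0.13, and reads may be split between the copies, whose promoters hold the same stretch. Oas1a, a sensor of double-stranded RNA in a family of close copies, had -0.62 ± 0.15; its level of 198 CPM in shKdm6b library 4 stood far above the 37.0 to 69.2 CPM of the other shKdm6b libraries.

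The remaining members below their pair in 5 of 5 cases were the secreted ubiquitin-like modifier Isg15 (log2 fold change -0.55 ± 0.17), its protease Usp18 (-0.44 ± 0.14), the helicase regulator Dhx58 (-0.40 ± 0.12), the GTPases Mx2 (-0.46 ± 0.14) and Igtp (-0.34 ± 0.12), the chaperone Rtp4 (-0.30 ± 0.09), the transcription factor Irf1 (-0.23 ± 0.09), the chemokine Ccl5 (-0.77 ± 0.28) and Oasl1 (-0.30 ± 0.15). Outside the list, Apol9a (-0.77 ± 0.18) and Phf11d (-0.64 ± 0.18), both from families of close copies, were among the 5 genes of smallest p on the lower side that met the naming rule. The 2 most abundant members moved less evenly. B2m, the light chain of class I antigen presentation, was lower in 3 of 5 pairs (-0.17 ± 0.13) and the membrane protein Ifitm3 in 3 of 5 (-0.25 ± 0.15).

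The interferon list also lay lower with the active than with the dead domain: the median log2 difference was -0.31, 57 of 60 members were negative and 9 were below the dead-domain pair in 5 of 5 cases, where 1.98% of all genes were, and 0 passed the adjusted threshold. The dead domain against shKdm6b gave a median of 0.00, shKdm6b against control 0.31, and the active domain against control 0.01; these comparisons share libraries. Ifi47, for example, averaged 35.2 CPM in control, 49.6 in shKdm6b, 36.3 with the active and 46.2 with the dead domain. Markers of microglia, cells that respond strongly to interferon, had a median log2 fold change of -0.02 between active domain and shKdm6b, with summed levels of 430 to 1690 CPM in active-domain and 603 to 1430 CPM in shKdm6b libraries. In numbers 1 to 3 alone the microglia median was -0.11, with 1 positive and 18 negative. In numbers 4 and 5 alone it was 0.15, with 14 positive and 5 negative. The part of microglia in the interferon values was not tested.

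**Figure D3:**
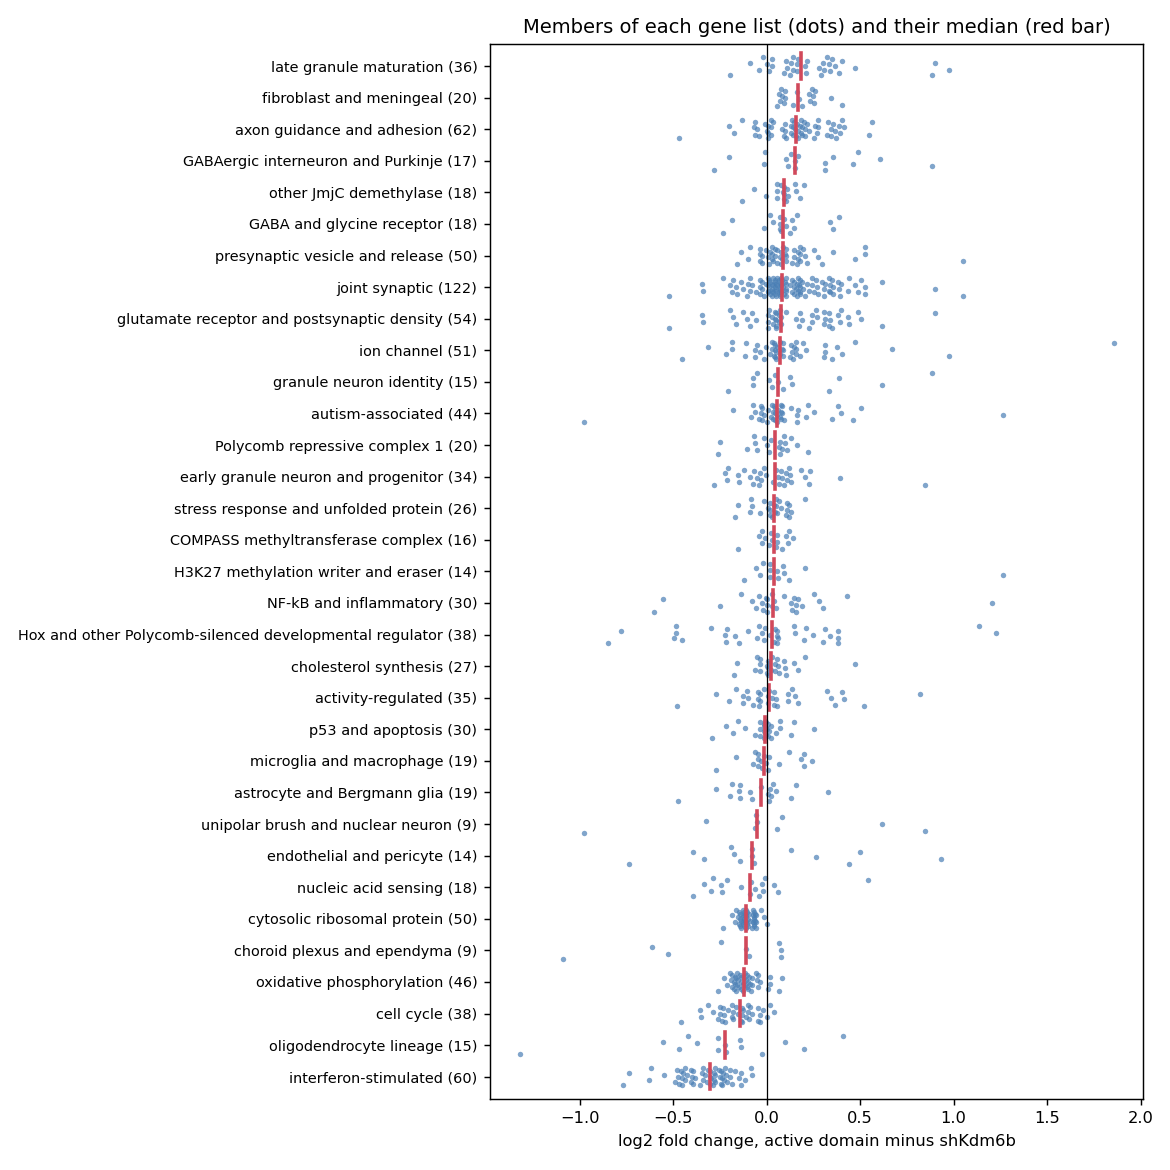
Each row is a gene list with its number of tested members, each dot a member's log2 fold change, active domain minus shKdm6b, and the red bar the median. The interferon-stimulated list has the lowest median (-0.30) with every member below 0, and the late granule maturation list the highest (0.18); dots of the same list are not independent.

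Genes of late granule neuron maturation were slightly higher with the active domain. All 36 members were tested, and 32 had a positive and 4 a negative log2 fold change, with 7 higher at an unadjusted p below 0.05 (2.38% of all genes), 0 called and a median of 0.18. The list mean lay above its shKdm6b pair in 5 of 5 pairs, by 0.257 ± 0.224 log2 CPM (SD), and the widest gap was in number 4, from 4.392 to 5.039. Against control, shKdm6b had a median of -0.50 and the active domain -0.29. The median between active and dead domain was 0.04 and that between dead domain and shKdm6b 0.13. Of 15 markers of granule neuron identity, 11 were positive (median 0.06). Their mean lay above its pair in 4 of 5 pairs, by 0.165 ± 0.255 log2 CPM (SD), with the widest gap also in number 4, from 5.964 to 6.543. Their summed level was higher in 2 of 5 pairs, and that of the maturation list in 4 of 5. In all numbers but 4 the identity median was -0.002, with 7 positive and 8 negative. The maturation median in that fit was 0.13, with 27 and 9. The part of granule neuron content in the maturation values was not tested.

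Of its members, 9 were higher in 5 of 5 pairs, where 2.66% of all genes were, and Nfib was lower in 5 of 5 by a small amount (-0.04 ± 0.08). Cbln3, a secreted organiser of parallel fibre synapses made by granule cells, was at 355, 327, 249, 42.2 and 261 CPM in shKdm6b libraries 1 to 5 and 420, 416, 322, 67.5 and 281 CPM in active-domain libraries 1 to 5. Each value moved up within its pair, while the groups overlapped and both were lowest in number 4. Its log2 fold change was 0.34 ± 0.12 (edgeR adjusted p = 1).

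The other 8 were Kcnc1, a fast potassium channel (0.35 ± 0.13), Kcnip4, another A-type channel subunit (0.98 ± 0.35), Kcnab2, a channel beta subunit (0.14 ± 0.10), Tiam1, an activator of the GTPase Rac (0.30 ± 0.10), the adhesion molecule Nrxn3 (0.22 ± 0.10), the transcription factor Etv1 (0.38 ± 0.18), the neurotrophin Bdnf (0.36 ± 0.18) and the calcium-dependent kinase Camk4 (0.28 ± 0.15). Snap25, a fusion protein of synaptic vesicles and the most abundant member, was higher in 4 of 5 pairs (0.16 ± 0.17).

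Grin2c encodes the NMDA receptor subunit that granule neurons take up as they mature. Grin2c was at 28.7, 28.8, 17.3, 5.47 and 35.7 CPM in shKdm6b libraries 1 to 5 and 61.5, 54.5, 49.9, 4.74 and 50.1 CPM in active-domain libraries 1 to 5. It was higher in 4 of 5 pairs and slightly lower in pair 4. The log2 fold change was 0.90 ± 0.27 (edgeR adjusted p = 0.748). Its control mean was 58.3 CPM and its dead-domain mean 27.4 CPM.

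Synaptic genes as a whole, the class the design asks about, showed no called change. The joint synaptic list had 122 tested members, of which 98 had a positive and 24 a negative log2 fold change, where 8257 of all 15284 genes were positive, and the median was 0.08 against 0.01 over all genes. At an unadjusted p below 0.05, 11 members were higher and 1 lower, where 2.38% and 1.39% of all genes were. In 5 of 5 pairs 8 were higher and 1 lower, where 2.66% and 1.64% of all genes were. The list mean was higher in 2 of 5 pairs. In number 4 it went from 4.500 to 5.270 log2 CPM, and in number 5 from 5.890 to 5.821. With all numbers but 4 in the fit, the median was -0.01 and 57 members were positive against 66 negative, so the sign of the list rested on that number. Against control, the medians were -0.08 for shKdm6b and 0.00 for the active domain. The median between active and dead domain was 0.04, with 87 positive and 35 negative members and 0 called, and that between dead domain and shKdm6b was also 0.04. In 5 of 5 pairs 4 members were above the dead domain and 0 below it, where 3.49% and 1.98% of all genes were. These comparisons share libraries.

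By role, the presynaptic list had 40 positive and 10 negative members of 50 (median 0.09), the glutamate receptor and postsynaptic list 43 and 11 of 54 (median 0.08), and the GABA and glycine receptor list 15 and 3 of 18 (median 0.09). In all numbers but 4 these lists, in the same order, had 25 and 25 (median 0.00), 25 and 29 (median -0.02) and 7 and 12 (median -0.03). Syt2, the fast calcium sensor of vesicle release, was at 35.3, 40.5, 33.8, 1.47 and 30.9 CPM in shKdm6b libraries 1 to 5 and at 73.0, 61.9, 72.3, 8.06 and 49.3 CPM in active-domain libraries 1 to 5. Every active-domain library but number 4 lay above every shKdm6b library. Syt2 had a log2 fold change of 1.05 ± 0.24 (edgeR adjusted p = 0.454; DESeq2 with the block, adjusted p = 0.0232). Its mean was 59.5 CPM in control and 34.1 CPM with the dead domain.

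On the postsynaptic side, the kainate receptor subunit Grik3 (0.62 ± 0.17), the scaffolds Shank3 (0.38 ± 0.13) and Dlgap1 (0.17 ± 0.10), the delta receptor Grid1 (0.33 ± 0.14), the metabotropic receptor Grm4 (0.31 ± 0.14) and the kinase subunit Camk2b (0.19 ± 0.12) were higher in 5 of 5 pairs. Cacng8, an auxiliary subunit of AMPA receptors, was lower in 5 of 5 pairs (-0.34 ± 0.16). None of these passed the adjusted threshold.

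**Figure D4:**
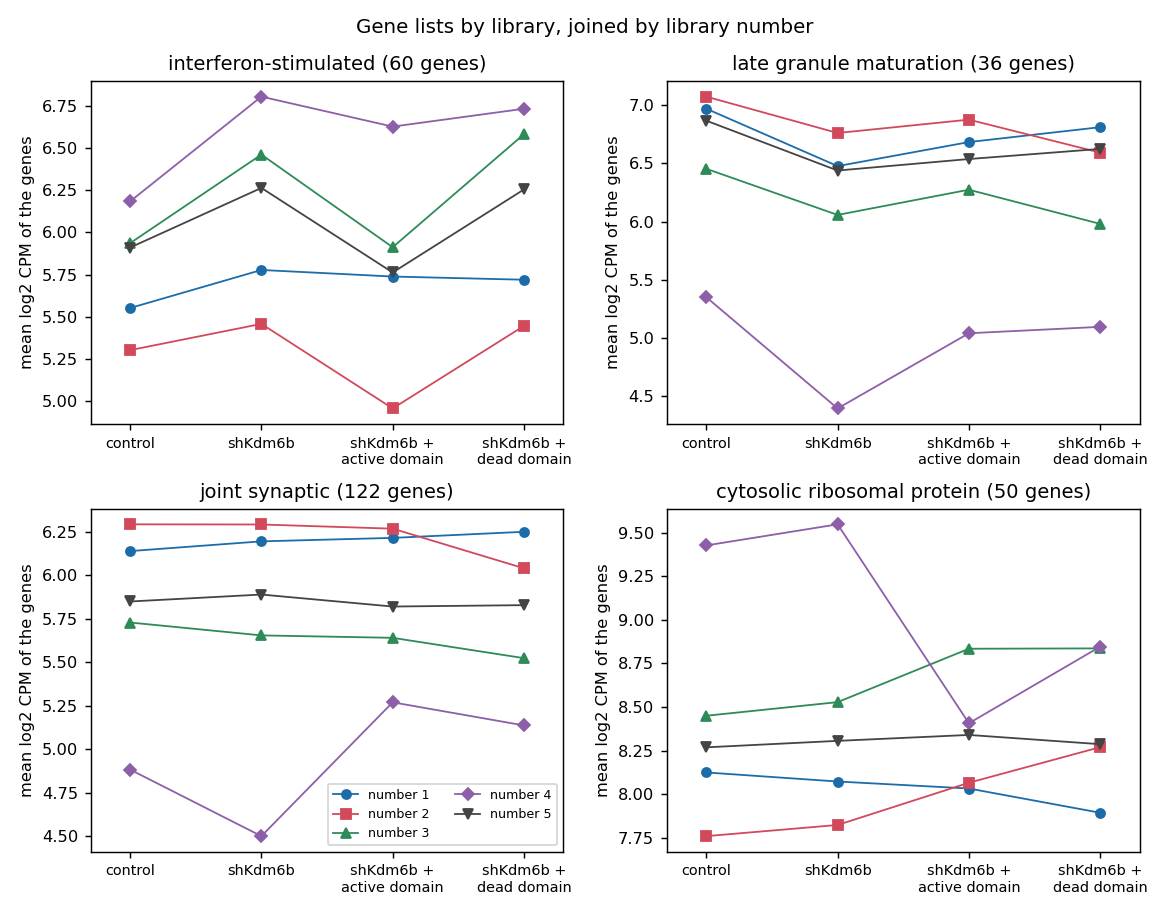
Mean log2 CPM of the tested members of 4 gene lists in each library, with 1 line per number. The interferon-stimulated mean is lower and the late granule maturation mean higher in active-domain than in shKdm6b libraries for all 5 numbers, whereas the synaptic and ribosomal protein means move apart mainly in number 4, where the synaptic mean goes from 4.500 to 5.270.

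Ion channel genes included the called gene Kcnip1. Of 51 members tested, 1 was called, 38 were positive and 13 negative, 5 were higher in 5 of 5 pairs, where 2.66% of all genes were, and the median was 0.07. The list mean differed mainly in number 4, from 3.680 to 4.364 log2 CPM. In all numbers but 4 the median was -0.005, with 25 positive and 26 negative, and without the block it was 0.02, with 29 and 22. Cacna1g, a T-type calcium channel, was at 114.7 ± 41.1 CPM (SD, n = 5) in shKdm6b and 146.4 ± 47.7 CPM (n = 5) with the active domain, higher in 5 of 5 pairs (0.38 ± 0.10, edgeR adjusted p = 0.566). Cacna2d2, an auxiliary calcium channel subunit, was higher in 4 of 5 pairs (0.67 ± 0.16, adjusted p = 0.454) and was called by DESeq2 with the block (adjusted p = 0.0436).

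The other genes that the naming rule selected on the higher side were Gjd2, Zfp703, Pdgfrb and Syndig1l. Gjd2, the gap junction protein connexin 36 of electrical synapses, was at 6.57, 3.77, 0.638, 14.0 and 1.39 CPM in shKdm6b libraries 1 to 5 and 17.2, 8.27, 2.46, 22.3 and 1.90 CPM in active-domain libraries 1 to 5. All pairs moved up, a condition of the rule, and the groups overlapped. Gjd2 had a log2 fold change of 1.09 ± 0.22 (edgeR adjusted p = 0.383); it overlaps A530058N18Rik on the opposite strand.

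Zfp703, a zinc finger corepressor, averaged 86.7 ± 25.6 CPM (SD, n = 5) in shKdm6b and 112.7 ± 27.6 CPM (n = 5) with the active domain (0.39 ± 0.08, edgeR adjusted p = 0.389). Its control mean was 139.9 CPM. Syndig1l, a transmembrane protein of the family of the synapse protein SynDIG1, went from 4.66 ± 2.28 to 8.65 ± 4.44 CPM (0.84 ± 0.18, adjusted p = 0.389), against 8.91 CPM in control. Pdgfrb, a growth factor receptor of pericytes and fibroblasts, went from 122.1 ± 77.9 to 151.9 ± 89.3 CPM (0.35 ± 0.07, adjusted p = 0.389).

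The 4 genes were higher in 5 of 5 pairs because the rule requires it, and they were called by DESeq2 with the block. Also higher in 5 of 5 pairs and called by DESeq2 with the block were Cck, Meis2, Pde2a, Rgs8, Synpo and Prickle1. The naming rule did not select them for this comparison, and they are named after their values were seen. Cck, a neuropeptide precursor, was at 1.68 ± 1.65 CPM (SD, n = 5) in shKdm6b and 4.75 ± 4.85 CPM (n = 5) with the active domain, higher in 5 of 5 pairs (1.33 ± 0.22, edgeR adjusted p = 0.0865). The transcription factor Meis2 had a log2 fold change of 0.84 ± 0.18, the cyclic nucleotide phosphodiesterase Pde2a 0.56 ± 0.12, the regulator of G-protein signalling Rgs8 0.41 ± 0.09, the actin-associated Synpo 0.30 ± 0.07 and the polarity gene Prickle1 0.44 ± 0.10. These 5 genes had an edgeR adjusted p of 0.389 or 0.454.

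The groups did not overlap at all in 6 genes on the higher side (0.0393% of genes) and 2 on the lower side (0.0131%). Gng7, a G-protein gamma subunit, was 1 of them, at 10.7, 9.99, 9.87, 7.59 and 9.09 CPM in shKdm6b libraries 1 to 5 and 11.8, 11.4, 12.4, 12.6 and 12.9 CPM in active-domain libraries 1 to 5. Its log2 fold change was 0.38 ± 0.11 (edgeR adjusted p = 0.734), and the gene was chosen after its values were seen. Sdk2, a synaptic adhesion molecule, was another, at 6.07, 7.12, 7.27, 0.552 and 7.09 CPM in shKdm6b libraries 1 to 5 and at 8.12 to 9.17 CPM with the active domain (1.01 ± 0.43, adjusted p = 1).

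Developmental regulators that Polycomb often silences, among which targets of a lysine 27 demethylase are found, showed no common direction against shKdm6b. Their Polycomb state was not measured here. The most abundant of them, En2 and Foxd1, averaged 195 and 104 CPM in control, so not all were silent. Of 77 listed developmental regulators, 38 passed the expression filter, so the list covers those detected in some library. Of the 38, 20 were positive and 18 negative, and the median was 0.03. At an unadjusted p below 0.05, 2 were higher and 3 lower, where 2.38% and 1.39% of all genes were. Between active and dead domain the median was 0.13, with 23 positive and 15 negative members and 0 called. In 5 of 5 pairs 6 were above the dead domain and 0 below it, where 3.49% and 1.98% of all genes were. Hoxd3 was at 6.51, 4.41, 3.68, 37.4 and 36.2 CPM in shKdm6b libraries 1 to 5, at 3.02, 2.87, 3.05, 28.8 and 15.1 CPM in active-domain libraries 1 to 5 and at 0.0524 to 1.12 CPM in control. It was lower in 5 of 5 pairs and still above control in all 5 numbers. The log2 fold change of Hoxd3 was -0.78 ± 0.23 against shKdm6b (edgeR adjusted p = 0.734) and 4.82 against control (adjusted p = 2.19e-06), and the dead-domain mean was 10.9 CPM.

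Pitx1, another homeobox gene, was at 14.6 ± 17.9 CPM (SD, n = 5) in shKdm6b and 6.50 ± 6.64 CPM (n = 5) with the active domain, lower in 4 of 5 pairs (-0.85 ± 0.29, edgeR adjusted p = 0.982), against 0.362 CPM in control and 7.14 CPM with the dead domain. Foxd1 was lower in 5 of 5 pairs (-0.49 ± 0.15). Cdkn2a, the cell cycle inhibitor locus repressed by Polycomb, was at 7.11, 5.37, 10.3, 20.8 and 9.33 CPM in shKdm6b libraries 1 to 5 and 17.2, 25.4, 52.7, 10.5 and 11.7 CPM in active-domain libraries 1 to 5. It was higher in 4 of 5 pairs and lower in pair 4 (1.23 ± 0.41, adjusted p = 0.975), and its neighbour Cdkn2b was higher in 4 of 5 (0.38 ± 0.11).

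The enzymes of the mark itself differed little. Of 14 writers and erasers tested, Kdm6b was the single member at an unadjusted p below 0.05. The methyltransferases Ezh2 (-0.12 ± 0.13) and Ezh1 (0.06 ± 0.09) and their partners Suz12 (0.12 ± 0.12) and Eed (-0.06 ± 0.07) did not pass the test. Polycomb repressive complex 1 had 13 positive and 7 negative members of 20 (median 0.05) and the other JmjC demethylases 15 and 3 of 18 (median 0.09). The JmjC list mean was higher in 2 of 5 pairs, and in number 4 it went from 4.652 to 5.414 log2 CPM. In all numbers but 4 the JmjC median was -0.09, with 2 positive and 16 negative, and that of Polycomb repressive complex 1 was 0.00, with 10 and 10. Without the block the medians were 0.01, with 10 and 8, and 0.00, with 10 and 10.

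Other neuronal lists gave mixed values. Axon guidance and adhesion genes had 52 positive and 10 negative members of 62 (median 0.16). At an unadjusted p below 0.05, 7 were higher, where 2.38% of all genes were. In 5 of 5 pairs 4 were higher, among them Slit3 (0.39 ± 0.12) and Sema4f (0.21 ± 0.08), where 2.66% of all genes were. With all numbers but 4 the median was -0.03. Activity-regulated genes had 20 positive and 15 negative members of 35 (median 0.01). The Ras activator Rasgrp1 (0.82 ± 0.23), the pentraxin Nptx1 (0.41 ± 0.15) and Bdnf were higher in 5 of 5 pairs, where 2.66% of all genes were. Cell cycle genes had 3 positive and 35 negative members of 38 (median -0.15). E2f1 (-0.35 ± 0.11), Gins2 (-0.46 ± 0.18) and Mcm6 (-0.32 ± 0.13) were lower at an unadjusted p below 0.05, where 1.39% of all genes were. Each was lower in 4 of 5 pairs. In numbers 4 and 5 alone the cell cycle median was 0.14.

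Markers of other cells in the cultures moved unevenly. Fibroblast and meningeal markers had 20 positive members of 20 (median 0.17), with 6 at an unadjusted p below 0.05, where 2.38% of all genes were higher. Pdgfrb, Fbln2 (0.41 ± 0.12), Postn (0.25 ± 0.09) and the collagen Col1a1 (0.26 ± 0.11) were higher in 5 of 5 pairs, where 2.66% of all genes were. The summed level of the list was 8440 to 38700 CPM in active-domain and 8620 to 31200 CPM in shKdm6b libraries, higher in 4 of 5 pairs. GABAergic and Purkinje markers had 13 positive and 4 negative members of 17 (median 0.15) and summed levels of 327 to 605 against 307 to 583 CPM. In all numbers but 4 their median was 0.03, with 9 positive and 8 negative. Astrocyte markers had a median of -0.03 and oligodendrocyte markers -0.22. In numbers 1 to 3 alone these medians were -0.26 and -0.46, and in numbers 4 and 5 alone 0.31 and 0.14. Without the block the oligodendrocyte median was -0.02. The part of these cells in the other values was not tested.

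Ribosomal protein genes show how much number 4 weighed. All 50 members had a log2 fold change of 0 or below (median -0.11), but the list mean was higher in 3 of 5 pairs and lower in pair 4 by the most, from 9.547 to 8.407 log2 CPM. With all numbers but 4, 50 of 50 were positive (median 0.14). Oxidative phosphorylation genes did the same, with 41 of 46 negative in all numbers (median -0.12) and 41 positive without number 4 (median 0.05). The interferon list kept its side in that fit, with 59 of 60 members negative (median -0.43), as did late maturation, with 27 of 36 positive (median 0.13).

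The active and dead domains were compared directly in the same fit. Of 15284 genes, 1 was higher with the active domain (0.00654%), Kcnip1, and 0 lower (0%), with 415 genes (2.72%) at an unadjusted p below 0.05; 3.49% of genes were above the dead-domain pair in 5 of 5 cases and 1.98% below it. None but Kcnip1 passed the adjusted threshold in edgeR, and DESeq2 with the block called Epas1 (adjusted p = 0.0158) and Oas2 (adjusted p = 0.0342) besides. Epas1, a hypoxia-inducible transcription factor, was at 51.6, 65.6, 113, 45.3 and 82.8 CPM in dead-domain libraries 1 to 5 and 79.6, 80.2, 138, 69.6 and 96.1 CPM in active-domain libraries 1 to 5. It was above the dead-domain pair in every number, a condition of the rule that selected it, by 0.41 on the log2 scale. From shKdm6b it differed by 0.29 ± 0.08 (edgeR adjusted p = 0.61).

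Selected by the same rule on the higher side were Rgs8 (0.37), Sowaha (0.71), the collagen Col8a1 (0.37) and Rasgrp1 (0.90). Each was above the dead-domain pair in 5 of 5 cases, as the rule requires. On the lower side were 5 genes, Oas2 (-0.56), Phf11d (-0.75), Tgtp1 (-0.52), the ISG15-activating enzyme Uba7 (-0.49) and Ifi47 (-0.33), which are interferon-induced; Tgtp1, like Phf11d, has close copies. Syt2 (0.71), Gjd2 (0.74) and Cdkn2a (1.55) also had positive differences that did not pass, and Zfp703 had 0.24 and Syndig1l 0.30.

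Because libraries 1 to 3 differed from 4 and 5 in Rn45s and Malat1, the comparison was repeated within each set. In numbers 1 to 3 alone, 17 genes were called, 16 higher and 1 lower, and in numbers 4 and 5 alone 0. The 17 were Kdm6b (1.52), Kcnip1 (2.18), Gjd2 (1.38), Syt2 (0.91), Grin2c (1.18), Cdkn2a (1.97), the calcium-binding protein Calb2 (1.06), Cacna2d2 (0.66), the tetraspanin Tspan9 (0.79), Tmem163 (1.13), the transporter Slc16a6 (0.59), the membrane skeleton protein Ank1 (0.69), 6030419C18Rik (0.69), the endothelial cadherin Cdh5 (-0.61), and Olfr90, Duoxa2 and Gm11710, which had counts of 0 in most or all shKdm6b libraries and for which no fold is given.

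Of the 17, 12 had the same sign in pair 4, 14 in pair 5 and 9 in both. Cdkn2a differed by 1.26, 2.23 and 2.35 in pairs 1 to 3, by -0.98 in pair 4 and by 0.32 in pair 5. Calb2 differed by 1.04, 1.00 and 1.14 in pairs 1 to 3, by -0.70 in pair 4 and by 0.17 in pair 5. The 17 genes were selected on pairs 1 to 3, which favours large and even differences there, so the scatter of pairs 4 and 5 beside them shows no difference between the sets. Whether the pairs of the 2 sets differ was not tested. The interferon median was -0.38 in numbers 1 to 3 alone and -0.33 in numbers 4 and 5 alone, and the late maturation median 0.11 and 0.28. For the active against the dead domain, 9 genes were called in numbers 1 to 3 alone, all higher: Cdkn2a (1.88), Grin2c (1.15), Islr2 (1.37), Ank1 (0.82), Kcnip1 (1.87), St8sia5 (0.90), Calb2 (0.82), Syt2 (0.75) and Cacna2d2 (0.65). Of these, which were likewise selected on pairs 1 to 3, 4 had the same sign in pair 4 and 8 in pair 5.

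**Figure D5:**
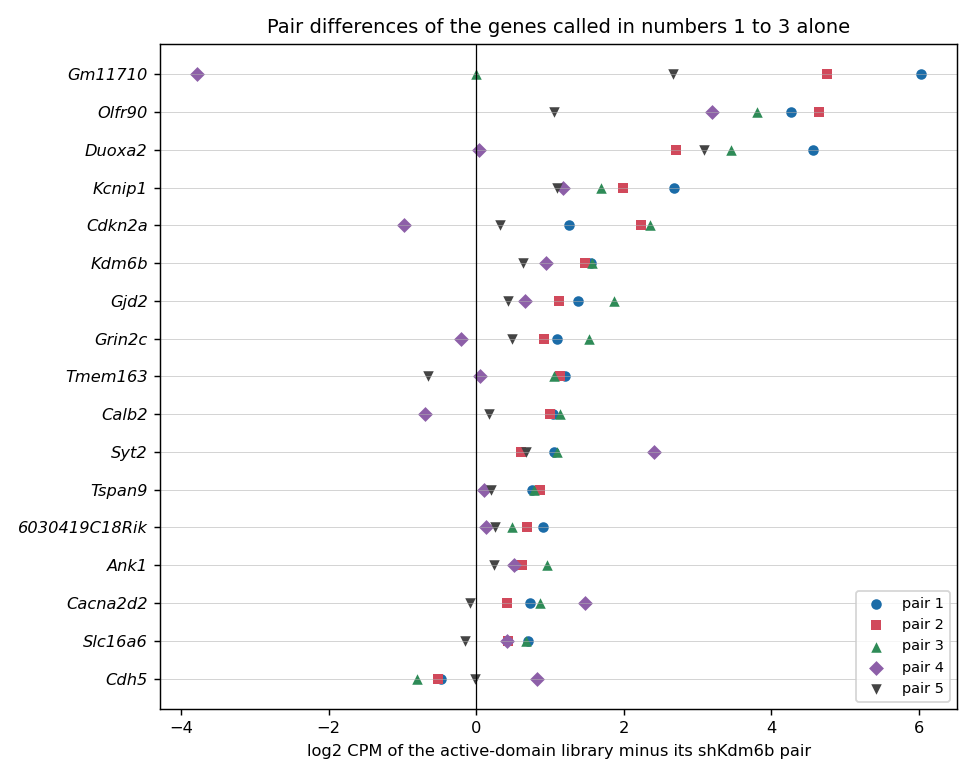
Difference in log2 CPM between the active-domain library and its shKdm6b pair for the 17 genes called in numbers 1 to 3 alone, with 1 marker per pair. Pairs 1 to 3 lie close together for most genes, which selection by a test on those same pairs favours. Pair 4 falls on the other side of 0 for Cdkn2a (-0.98), Calb2 (-0.70), Grin2c, Cdh5 and Gm11710.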

How the data were processed

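RNA of 20 libraries, 5 per group, was measured as estimated counts per gene. The authors deposited these estimated counts in 1 table with 1 column per library; its name gives salmon as the tool. Reads were handled with mm10, per the submitters' processing notes. Neither salmon's version nor the annotation or strand setting is given in the sources here. Of the values in a library, 7.03 to 11.2% were not whole, and all were rounded. No other value column was left over, and no pair of libraries within the active-domain or within the shKdm6b group was identical. Other pairs of libraries were not checked for this.

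Genes were kept with filterByExpr (15284 of 24411; 9127 removed), scaled with TMM and fitted with edgeR 4.0.16 (R 4.3.3; quasi-likelihood, robust, two-sided, Benjamini-Hochberg over all genes tested, threshold 0.05) on all 20 libraries with the library number as an additive block. CPM use TMM-scaled totals, and log2 CPM a prior count of 1. DESeq2 1.42.0 was an alternative. The block is in the main fit because the comparison pairs libraries by number. The labels share the numbers across groups but do not explain them. Deviations from the group mean correlated across genes between same-numbered libraries (Pearson r of 0.363 to 0.754 over 5 pairs, against a median of -0.219 and at most 0.418 over 20 other pairs), and 10 of 10 libraries correlated best with their own number. The biological coefficient of variation was 0.179 with the block and 0.392 without.

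Named genes were the called genes with at least 5 CPM on average and 5 of 5 pairs in 1 direction. Where fewer than 5 passed, they were the 5 of smallest p under the same conditions. Predicted and clone-named genes were left out. Kdm6b and Kdm6a were added, and the same rule was used for the active against the dead domain. From a list, the rule took called members or, without any, the most abundant ones. Many list members named above were outside the rule and were picked with their values seen, Syt2, Grin2c, Cbln3, Hoxd3, Pitx1, Cdkn2a and Cacna1g among them. Some that it took, such as Cplx2 (log2 fold change 0.08) and Gabrb2 (0.09), are not described above. Kcnip1 is below 5 CPM and is named because it is the single call. The comparison and all gene lists were chosen with earlier results of these data known, and lists are described by counts and medians without a test. Gene coordinates are from the GENCODE annotation of GRCm38 and promoters from RefSeq. The edgeR fit of all 20 libraries, with and without the block, was also run on simulated counts for the active domain against shKdm6b. The other fits and the comparison with the dead domain were not.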

Additional observations from a re-analysis of the deposited data

Results flagged for a closer look

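Oas1a, the double-stranded RNA sensor, stood at 198 CPM in shKdm6b library 4, the highest of the 5, with the other 4 between 37.0 and 69.2 CPM. The gap to the nearest library was 0.8 of the whole range, above the critical value of 0.71 for 5 samples. Of 42 groups of values examined, 1 met this limit, and chance alone gives about 1 in 20.

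Kcnip1 differed between the responses to the active and to the dead domain. The test of the difference itself, the active against the dead domain in the paired edgeR fit, gave 1.67 on the log2 scale (adjusted p = 0.0411), with the active-domain library higher in 5 of 5 pairs.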

How the results depend on the processing

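The single call was fragile. Without the replicate block, edgeR called 0 genes against shKdm6b and 0 against the dead domain (50 and 37 at an unadjusted p below 0.05), and DESeq2 with no replicate block, added after seeing the data, called 0 and 0 (72 and 50). With only the 10 compared libraries the counts were 0 and 0 (290 and 556). DESeq2 with the block called 21 and 3. Numbers 1 to 3 alone gave 17 and 9 calls, numbers 4 and 5 alone 0 and 0 (1053 and 184), all numbers but 4 gave 1 and 0 (709 at an unadjusted p below 0.05 for the latter), and all numbers but 5 gave 2 and 0 (343). RLE size factors, no filter and the stricter filter (1 CPM in 10 libraries) gave 1 and 1. Leaving out a library in turn gave 0 to 2 calls in both comparisons, and a group that loses a library is taken to vary like the rest. The mean difference of Kdm6b between the groups in log2 CPM ranged, with 1 library left out, from 0.98 without shKdm6b 4 to 1.57 without active-domain 4; the paired fit gave 0.78 in numbers 4 and 5 alone.

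Kdm6a changed sign, to -0.17 in numbers 1 to 3 alone, -0.10 in all numbers but 4 and -0.06 without active-domain library 4; leaving out single libraries gave -0.06 to 0.34. Over 81 named genes and 1701 alternative values, 193 had the other sign or were 0, most of them of list members with values near 0. Kcnip1, Kdm6b, Gjd2, Zfp703, Pdgfrb, Syndig1l, Ifi47, Apol9a, Oas1a, Phf11d and Ifit3 kept their sign in every alternative run. Causes were not tested. Genes of low counts, Kcnip1 among them, are limited by depth.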

Other observations

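A set of 3 genes not usually linked to neurons showed a pattern tied to the library number, and all 3 were chosen after their values were seen. Olfr90, an olfactory receptor gene, was at 7.49, 8.59 and 6.02 CPM in control libraries 1 to 3 and at 0 in control libraries 4 and 5. It had 0 counts in all 5 shKdm6b libraries, each of which allows a level of up to 3 counts, or 0.145 to 0.18 CPM (counting error only). Its active-domain levels were 0.975, 1.29, 0.695, 0.440 and 0.0576 CPM in libraries 1 to 5, and its dead-domain levels 0.199 to 0.890 CPM.

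Duoxa2, a maturation factor of dual oxidase, was at 5.71, 9.04 and 7.61 CPM in control libraries 1 to 3 and at 0 and 0.117 CPM in controls 4 and 5. In the other groups Duoxa2 was at 0 to 0.0531 CPM with shKdm6b, 0.0488 to 1.22 CPM with the active domain and 0.0633 to 0.840 CPM with the dead domain. Defb20, a defensin gene, was at 7.60, 10.3 and 5.90 CPM in control libraries 1 to 3 and at 0 in the other controls. Defb20 was at 0 to 0.383 CPM with shKdm6b, 0.173 to 1.66 CPM with the active domain and 0.0664 to 1.22 CPM with the dead domain. Both domains thus sat between shKdm6b and control in numbers 1 to 3. In numbers 4 and 5 the controls were at or near 0, and some active-domain values there, such as 0.0576 CPM for Olfr90 in number 5 and 0.0488 CPM for Duoxa2 in number 4, lay below the level that 0 counts allow, so no order is read from them. The active against the dead domain gave edgeR adjusted p = 1 for each of the 3 genes.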
